A study of Mus musculus with 9 samples.

Results

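Matrix metalloproteinases (MMPs) and tissue inhibitors of metalloproteinases (TIMPs) were followed across subpopulations of activated hepatic stellate cells (aHSCs) defined by WT1 expression. The genes were Mmp2, Mmp3, Mmp12, Mmp13, Mmp14, Mmp19, Mmp23, Timp1, Timp2 and Timp3, chosen by name. The 10 genes stood among 30869 gene symbols, and all probes carrying 1 of these symbols were taken, which gave 19 of the 45281 gene probes on the array. Signal above background on at least 3 of the 9 arrays was required for testing. This was met by 17 of the 19 probes, and by at least 1 probe of each gene. The other 2, an Mmp14 and an Mmp19 probe designed on cDNA clones, were detected on no array.

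MMPs are zinc-dependent proteases, made as inactive precursors, that cut collagens, elastin and other matrix proteins. TIMPs bind their active sites and block them. In the injured liver, aHSCs are a known source of both. The balance between protease and inhibitor is held to decide how much scar is degraded, and macrophages are a known source of some MMPs while scar is being removed.

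Each array held RNA from 1 sample, labelled in every group as male and C57/Bl6 and carrying WT1GFP/+, a knock-in reporter in which green fluorescent protein (GFP) stands in for one WT1 allele. Every group carried this allele. The methods name both sexes for in vitro work, so the sex label of the cultured arrays was not settled. WT1-high (GFP high; replicates 1, 8 and 29) and WT1-intermediate (GFP low; replicates 1, 8 and 30) aHSCs were sorted straight from livers injured by repeated intraperitoneal carbon tetrachloride. These 6 arrays came from 3 animals. WT1-negative aHSCs (GFP negative; replicates 3, 11 and 14) were sorted from stellate cells that had activated over 7 days on culture plastic, taken from uninjured animals. Growth in liver or in culture therefore coincided with WT1 status and with the export table, and these cannot be told apart. Between 38.1% and 43.7% of gene probes were detected per array.

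Against the label of stellate cell, Gfap and Lhx2 were detected on no array and Lrat on 1 WT1-high array only, while Acta2 was detected on all 9. Of 11 mesothelial markers, 11 were called higher in WT1-high and in WT1-intermediate than in WT1-negative aHSCs, and 5 of them were detected on no WT1-negative array. Of 6 skeletal muscle markers, 6 were called lower in each in vivo group than in WT1-negative aHSCs. Of 5 tested hepatocyte markers, 5 were called higher in WT1-high and 4 in WT1-intermediate than in WT1-negative aHSCs, and none lower. Of 7 tested T and NK cell markers, 6 were called higher in each in vivo group and none lower. Among all tested probes, 26.5% were called higher and 33.1% lower in WT1-high than in WT1-negative aHSCs, and 24.4% and 33.6% in WT1-intermediate aHSCs. Of 17 tested macrophage markers, 12 were called lower in WT1-high than in WT1-intermediate aHSCs and none higher. Of the stellate markers, Des and Acta2 were called higher (1.40 and 0.76) and Pdgfrb lower (-1.28) in that comparison, and Dmkn was the 1 mesothelial marker called (0.92). In such bulk samples, fewer cells of a type and less RNA per cell cannot be told apart.

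Mmp13, Mmp12 and Mmp3 lie close together on chromosome 9, and the sequence before their starts is shown because these 3 genes were the members lower in WT1-high than in WT1-intermediate aHSCs. Each run holds the 250 bases before a RefSeq start (GRCm38.p6, gene strand, which is the plus strand). Capitals mark a match to the AP-1 motif (TGAGTCA or its reverse complement TGACTCA) or to the TATA motif (TATAAA or its reverse complement TTTATA). AP-1, the dimer of Fos and Jun proteins, is known for binding shortly before collagenase and stromelysin genes. Mmp12 had a pair of listed starts, of which the downstream one is shown.
Mmp13, chr9:7272264-7272513: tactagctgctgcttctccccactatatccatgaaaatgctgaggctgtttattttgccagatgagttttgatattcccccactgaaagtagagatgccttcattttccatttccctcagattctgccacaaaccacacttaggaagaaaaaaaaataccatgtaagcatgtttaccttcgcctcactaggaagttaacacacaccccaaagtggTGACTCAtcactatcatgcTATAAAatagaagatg
Mmp12, chr9:7347124-7347373: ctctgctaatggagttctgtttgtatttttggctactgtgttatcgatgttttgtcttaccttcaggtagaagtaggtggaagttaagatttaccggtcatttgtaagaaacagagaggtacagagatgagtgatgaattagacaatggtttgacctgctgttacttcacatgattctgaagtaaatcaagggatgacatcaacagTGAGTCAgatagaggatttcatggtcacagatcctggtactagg
Mmp3, chr9:7445572-7445821: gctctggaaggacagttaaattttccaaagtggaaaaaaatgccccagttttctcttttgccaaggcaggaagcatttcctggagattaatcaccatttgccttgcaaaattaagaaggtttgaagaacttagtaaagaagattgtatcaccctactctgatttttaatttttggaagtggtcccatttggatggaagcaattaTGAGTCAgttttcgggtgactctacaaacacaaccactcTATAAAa
The AP-1 letters ended 29 bases before the start of Mmp13, 38 before that of Mmp12 and 40 before that of Mmp3. Of 32851 RefSeq windows of this length, 4.46% held the AP-1 letters, 12.4% the TATA letters and 0.721% both, as the windows of Mmp13 and Mmp3 did. Among 10 windows of 8 members (Mmp3, Mmp12, Mmp13, Mmp14, Mmp23, Timp1, Timp2 and Timp3), AP-1 letters were found in these 3 windows only. The window before the upstream start of Mmp12 held neither motif. Windows of the other MMP genes of this stretch were not looked at singly, so the match cannot be called particular to these members. A match describes letters, not binding, and a link to the differences in signal was not tested.

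Between WT1-high and WT1-intermediate aHSCs, the called differences lay in 3 secreted proteases of this chromosome 9 run and in 1 inhibitor probe. Mmp3, Mmp12 and Mmp13 fell in WT1-high aHSCs, with differences of -2.00, -2.63 and -2.06 on the log2 scale by the brightest probe of each, while a Timp3 probe rose by 0.90. Of the 17 tested probes, 5 were called lower and 1 higher (limma, Benjamini-Hochberg adjusted p under 0.05 over all 20573 tested probes, termed a call). Among all tested probes, 2.64% were called lower and 0.904% higher. Taking the brightest probe of each gene, the median difference was 0.10 over the 10 genes, and 7 of the 10 genes were not called by that probe. Over the 17 tested member probes the median was 0.05, and over all tested probes it was also 0.05. The dimmer 2 probes of Mmp13 and the Mmp19 probe passed the filter through 1 group alone, and none of these 3 was called here.

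Both in vivo groups were compared with the same 3 WT1-negative arrays, so the next values are given side by side and not as independent comparisons. WT1-high aHSCs had 9 member probes called higher and 7 lower, against 26.5% and 33.1% of all tested probes. WT1-intermediate aHSCs had 7 called higher and 4 lower, against 24.4% and 33.6% of all tested probes. By brightest probe, the median difference from WT1-negative aHSCs was 1.02 for WT1-high aHSCs and 0.97 for WT1-intermediate aHSCs. Over all 17 tested member probes, dim ones included, it was 0.43 and 0.64, beside -0.10 and -0.13 over all tested probes. With most of all tested probes called in each of these comparisons, a call by itself says little about a member, and sizes are given. Without the 3 probes that passed through 1 group alone, whose direction against that group the filter set, 14 probes remained. WT1-high aHSCs then had 8 higher and 5 lower, and WT1-intermediate aHSCs 7 and 3. The medians were 1.38 and 1.02 by brightest probe over 9 genes, and 1.02 and 0.93 over the 14 probes. By brightest probe, Mmp2, Mmp23, Timp2 and Timp3 were higher in both in vivo groups by 1.21 to 3.19 on the log2 scale, and Mmp13 was lower in both.

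**Figure D1:**
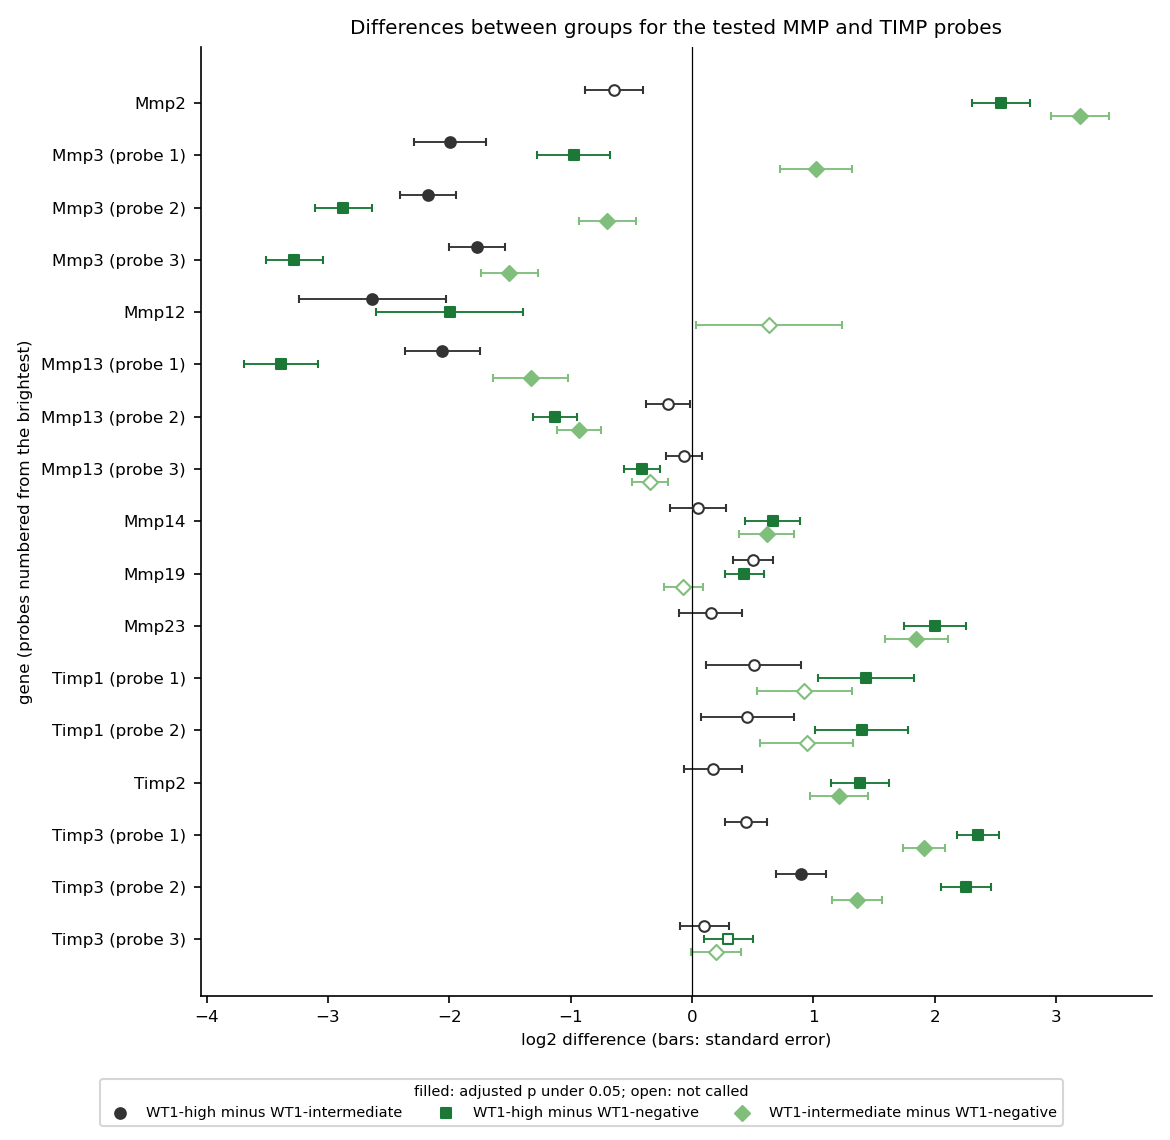
Log2 differences (x axis, bars are standard errors) of the 17 tested MMP and TIMP probes (y axis) in the 3 comparisons of groups with 3 arrays each; filled symbols are calls at an adjusted p under 0.05. The circles (WT1-high minus WT1-intermediate) lie left of 0 for Mmp3, Mmp12 and the brightest Mmp13 probe and near 0 for most others, while squares and diamonds (differences from WT1-negative aHSCs) lie right of 0 for Mmp2, Mmp23, Timp2 and Timp3.

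Mmp3 is stromelysin 1, a protease that cuts proteoglycans and fibronectin and activates other MMPs. Its brightest probe read 7.44, 7.71 and 8.27 on the normalized log2 scale in WT1-high aHSCs. It read 9.93, 9.25 and 10.23 in WT1-intermediate aHSCs, and 9.02, 8.29 and 9.03 in WT1-negative aHSCs. All WT1-high arrays lay below all others, and no groups overlapped. The difference between WT1-high and WT1-intermediate aHSCs was -2.00 ± 0.30 (SE, n = 3 per group), a 3.99-fold lower signal (adjusted p = 0.0048, limma, Benjamini-Hochberg). By array number it was -2.49 for number 1, -1.54 for number 8 and -1.96 for 29 minus 30.

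Mmp3 has a further 2 probes on the same transcript, and the place of WT1-negative aHSCs depended on the probe. The first 30 of 50 bases of each are shown, in order of brightness, because they tell the readings apart.
ILMN_2899041: gagtctttgtgaaaggaagtgctttgttca
ILMN_2753809: gctagcaggttatcctaaaagcattcacac
ILMN_2704576: gtcctccacagacttgtcccgtttccatct
The second probe read 6.35, 6.92 and 7.19 in WT1-high, 8.82, 8.84 and 9.33 in WT1-intermediate and 9.53, 9.58 and 9.98 in WT1-negative aHSCs. The third read 5.64, 6.09 and 6.28, then 7.95, 7.35 and 8.02, then 9.15, 9.08 and 9.61 in the same order of groups. On both, the groups formed separate steps with WT1-negative aHSCs on top. All 3 probes fell in WT1-high against WT1-intermediate aHSCs, with differences of -2.00, -2.18 and -1.77 (adjusted p = 0.0048, 0.00082 and 0.0025, limma, Benjamini-Hochberg). Between WT1-intermediate and WT1-negative aHSCs the difference was 1.02 ± 0.30 on the first probe, -0.70 ± 0.23 on the second and -1.51 ± 0.23 on the third (SE). Each passed the test (adjusted p = 0.012, 0.024 and 0.00023, limma, Benjamini-Hochberg). WT1-intermediate aHSCs were thus highest on 1 probe and WT1-negative aHSCs on the other 2, so no direction of Mmp3 between these groups can be given. Against WT1-negative aHSCs, WT1-high aHSCs were lower on each probe, with differences of -0.98, -2.87 and -3.28, and the call on the first probe was lost in 4 of 19 alternatives in each comparison with WT1-negative aHSCs (adjusted p up to 0.063). The call on the second probe between WT1-intermediate and WT1-negative aHSCs was also lost in 4 of 19 (adjusted p up to 0.0997).

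Mmp13 is the interstitial collagenase of mice, which makes the first cut in fibrillar collagen. Its brightest probe read 5.97, 5.41 and 5.99 in WT1-high aHSCs. It read 8.27, 7.81 and 7.46 in WT1-intermediate aHSCs and 9.87, 8.70 and 8.96 in WT1-negative aHSCs. The groups formed 3 separate steps, WT1-high lowest and WT1-negative highest. WT1-high aHSCs fell by 2.06 ± 0.31 (SE) against WT1-intermediate aHSCs, a 4.16-fold difference (adjusted p = 0.0048, limma, Benjamini-Hochberg). They fell by 3.39 ± 0.31 against WT1-negative aHSCs, a 10.5-fold difference (adjusted p = 3.5e-06), and WT1-intermediate aHSCs fell by 1.33 ± 0.31 against the same arrays (adjusted p = 0.0032).

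The other 2 Mmp13 probes were near background and passed the filter through the WT1-negative arrays, on all 3 of which they were detected, so the filter set their direction against that group and no test is given. The brighter of them was detected on no WT1-high array and 1 WT1-intermediate array. It was at least 1.84-fold lower in WT1-high than in WT1-negative aHSCs, with group means of 4.29 and 5.43. Neither probe was called between WT1-high and WT1-intermediate aHSCs, where differences were -0.20 and -0.06.

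**Figure D2:**
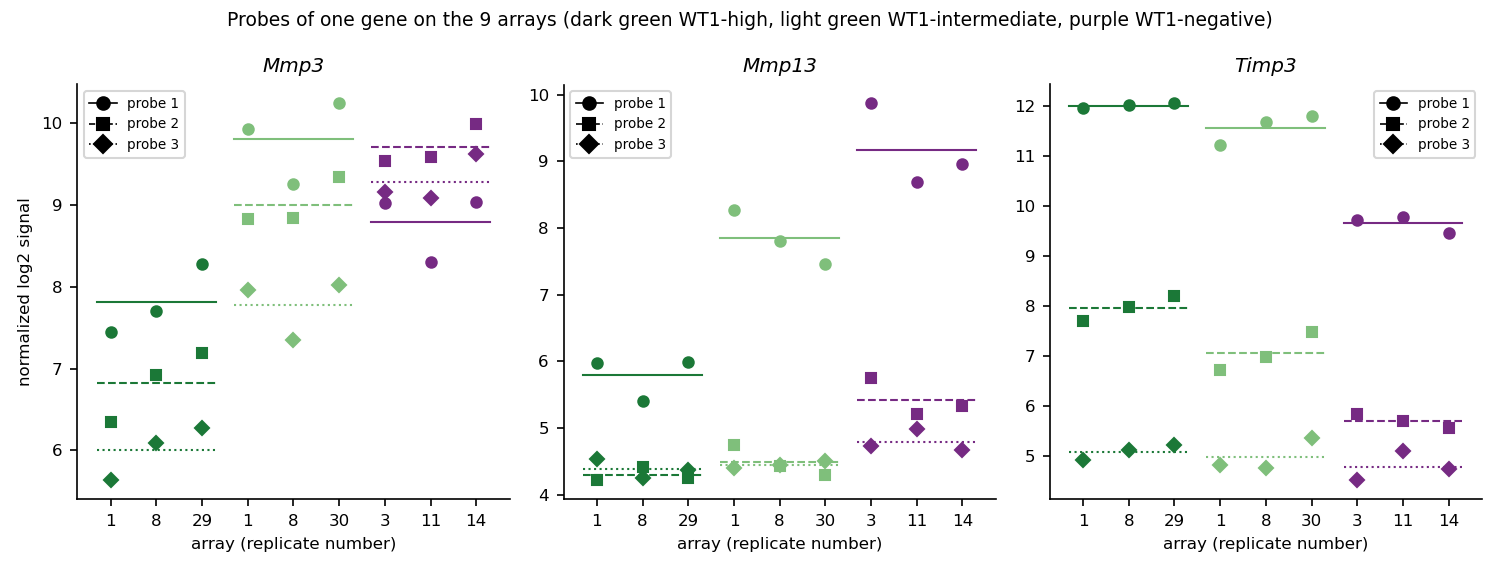
Normalized log2 signal (y axis) of the 3 probes of Mmp3, of Mmp13 and of Timp3 on each of the 9 arrays (x axis, by replicate number; dark green WT1-high, light green WT1-intermediate, purple WT1-negative; horizontal lines are group means). For Mmp3 the light green points lie above the purple ones on probe 1 only; for Mmp13 and Timp3 the dimmest probes lie between 4 and 6 in every group.

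Mmp12 is macrophage elastase, which cuts elastin and is made mainly by macrophages. Its only probe read 6.22, 6.56 and 7.26 in WT1-high aHSCs and 8.74, 9.47 and 9.74 in WT1-intermediate aHSCs. In WT1-negative aHSCs it read 10.16, 7.09 and 8.79, so the cultured arrays spanned almost the whole range. WT1-high and WT1-intermediate arrays did not overlap, while the WT1-negative group overlapped with both. WT1-high aHSCs fell by 2.63 ± 0.60 (SE) against WT1-intermediate aHSCs, a 6.21-fold difference (adjusted p = 0.037, limma, Benjamini-Hochberg). Within same-numbered arrays the difference was -2.52 for number 1 and -2.91 for number 8, and it was -2.48 for 29 minus 30.

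The call of Mmp12 between the in vivo groups was lost in 11 of 21 alternatives, including the replicate block as a fixed term (adjusted p = 0.12) and the removal of any single in vivo array (adjusted p between 0.061 and 0.13, limma, Benjamini-Hochberg), with the difference between -2.92 and -2.40. Against WT1-negative aHSCs, WT1-high aHSCs fell by 2.00 ± 0.60 (SE, adjusted p = 0.014), a call lost without WT1-high replicate 1 (adjusted p = 0.051), without WT1-negative replicate 3 (difference -1.26) or with no filter (adjusted p = 0.077). WT1-intermediate aHSCs differed from WT1-negative aHSCs by 0.64 with a 95% interval of -0.69 to 1.96 (adjusted p = 0.38, limma, Benjamini-Hochberg). That difference was 1.38 and passed the test without WT1-negative replicate 3 (adjusted p = 0.036), and was -0.16 without WT1-negative replicate 11.

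Macrophage markers moved with these 3 proteases between the in vivo groups. Over 18 markers, the summed normalized signal on the linear scale lay between 4319 and 7504 in WT1-high, 15069 and 24906 in WT1-intermediate and 46937 and 50680.4 in WT1-negative aHSCs. Such sums weigh the brightest markers most. Between WT1-intermediate and WT1-negative aHSCs, 8 of 17 tested markers had positive and 9 negative differences. There 5 were called higher and 7 lower, beside 24.4% and 33.6% of all tested probes. The median difference of the 17 tested markers between WT1-high and WT1-intermediate aHSCs was -1.81, beside 0.05 over all tested probes. Adgre1 (the F4/80 antigen, listed on the array as Emr1) fell by 2.14 in that comparison (adjusted p = 0.0017) and the difference of C1qa, a complement subunit, was -2.83 (adjusted p = 7.3e-06, limma, Benjamini-Hochberg). Cd5l was detected on no array, Itgam on no WT1-high array, and Clec4f and Timd4, of resident liver macrophages, on no WT1-negative array. Among other marker lists, endothelial and neutrophil markers leaned the same way between the in vivo groups, and hepatocyte and mesothelial markers the other way. Of 9 tested endothelial markers 7 had negative differences (median -0.69), with Stab2 (-0.93) and Tek (-0.77) called lower. Of 9 tested neutrophil markers 8 had negative differences (median -0.49) and none was called. All 5 tested hepatocyte markers had positive differences (median 0.72, none called), as did all 11 mesothelial markers (median 0.54, 1 called). The part of any of these cell types in the levels of Mmp3, Mmp12 and Mmp13 was not tested.

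**Figure D3:**
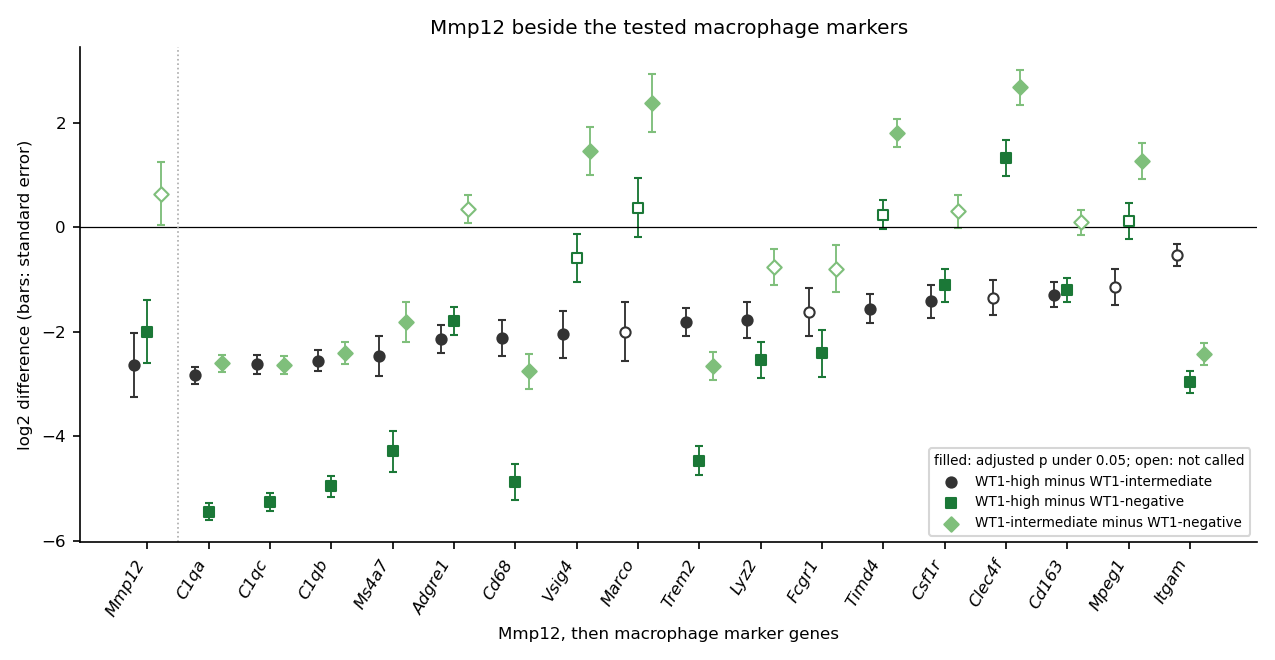
Log2 differences (y axis, bars are standard errors) of Mmp12 and of 17 tested macrophage markers (x axis) in the 3 comparisons of groups with 3 arrays each; filled symbols are calls at an adjusted p under 0.05. All circles (WT1-high minus WT1-intermediate) lie below 0, Mmp12 at -2.63 and the markers from -2.83 to -0.53, whereas the diamonds (WT1-intermediate minus WT1-negative) lie on both sides of 0.

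Mmp2 is gelatinase A, which degrades denatured collagen and basement membrane and is a known product of stellate cells. It read 10.48, 10.62 and 10.97 in WT1-high aHSCs, 10.83, 11.72 and 11.45 in WT1-intermediate aHSCs and 7.95, 8.47 and 8.01 in WT1-negative aHSCs. Every in vivo array lay above every cultured array, and the in vivo groups overlapped. WT1-high aHSCs were higher than WT1-negative aHSCs by 2.55 ± 0.24 (SE), a 5.85-fold difference (adjusted p = 4.7e-06, limma, Benjamini-Hochberg). WT1-intermediate aHSCs were higher by 3.19 ± 0.24, or 9.15-fold (adjusted p = 1.1e-06). Between the in vivo groups the difference was -0.65 with a 95% interval of -1.17 to -0.12 and was not called (adjusted p = 0.19, limma, Benjamini-Hochberg). By array number it was -0.35 for number 1, -1.11 for number 8 and -0.47 for 29 minus 30, and it was not called under the replicate block either (adjusted p = 0.065 when random, 0.16 when fixed).

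Mmp14, the membrane-type protease that activates the Mmp2 precursor in a complex with Timp2, showed the smallest difference between the in vivo groups, 0.05 with a 95% interval of -0.46 to 0.55 (brightest probes). It read 11.01, 11.69 and 10.98 in WT1-high, 10.91, 11.38 and 11.25 in WT1-intermediate and 10.41, 10.37 and 10.92 in WT1-negative aHSCs. The ranges of the in vivo groups lay over each other, and WT1-negative replicate 14 lay level with the lowest in vivo array. The differences from WT1-negative aHSCs were 0.66 ± 0.23 for WT1-high (adjusted p = 0.028) and 0.61 ± 0.23 for WT1-intermediate aHSCs (adjusted p = 0.039, SE; limma, Benjamini-Hochberg). These calls were lost in 5 and 7 of the 19 alternatives, with adjusted p up to 0.13.

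Mmp23, an MMP held in the membrane by its own propeptide, read 9.13, 9.43 and 9.58 in WT1-high, 8.70, 9.40 and 9.58 in WT1-intermediate and 7.36, 7.00 and 7.78 in WT1-negative aHSCs. The in vivo groups lay over each other, and the cultured arrays lay apart and lower. The difference from WT1-negative aHSCs was 2.00 ± 0.26 for WT1-high aHSCs and 1.85 ± 0.26 for WT1-intermediate aHSCs (SE; adjusted p = 5.1e-05 and 0.0001, limma, Benjamini-Hochberg). Between the in vivo groups it was 0.15 with a 95% interval of -0.41 to 0.72.

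Mmp19, a secreted MMP, was detected on all 3 WT1-high arrays (4.99, 4.55 and 4.93) and on no other array, where it read between 4.19 and 4.52. It had passed the filter through the WT1-high group alone, so its direction was set by the filter. Against the limit of detection it was at least 1.20-fold higher than in WT1-intermediate aHSCs and at least 1.16-fold higher than in WT1-negative aHSCs. No test is given for it.

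**Figure D4:**
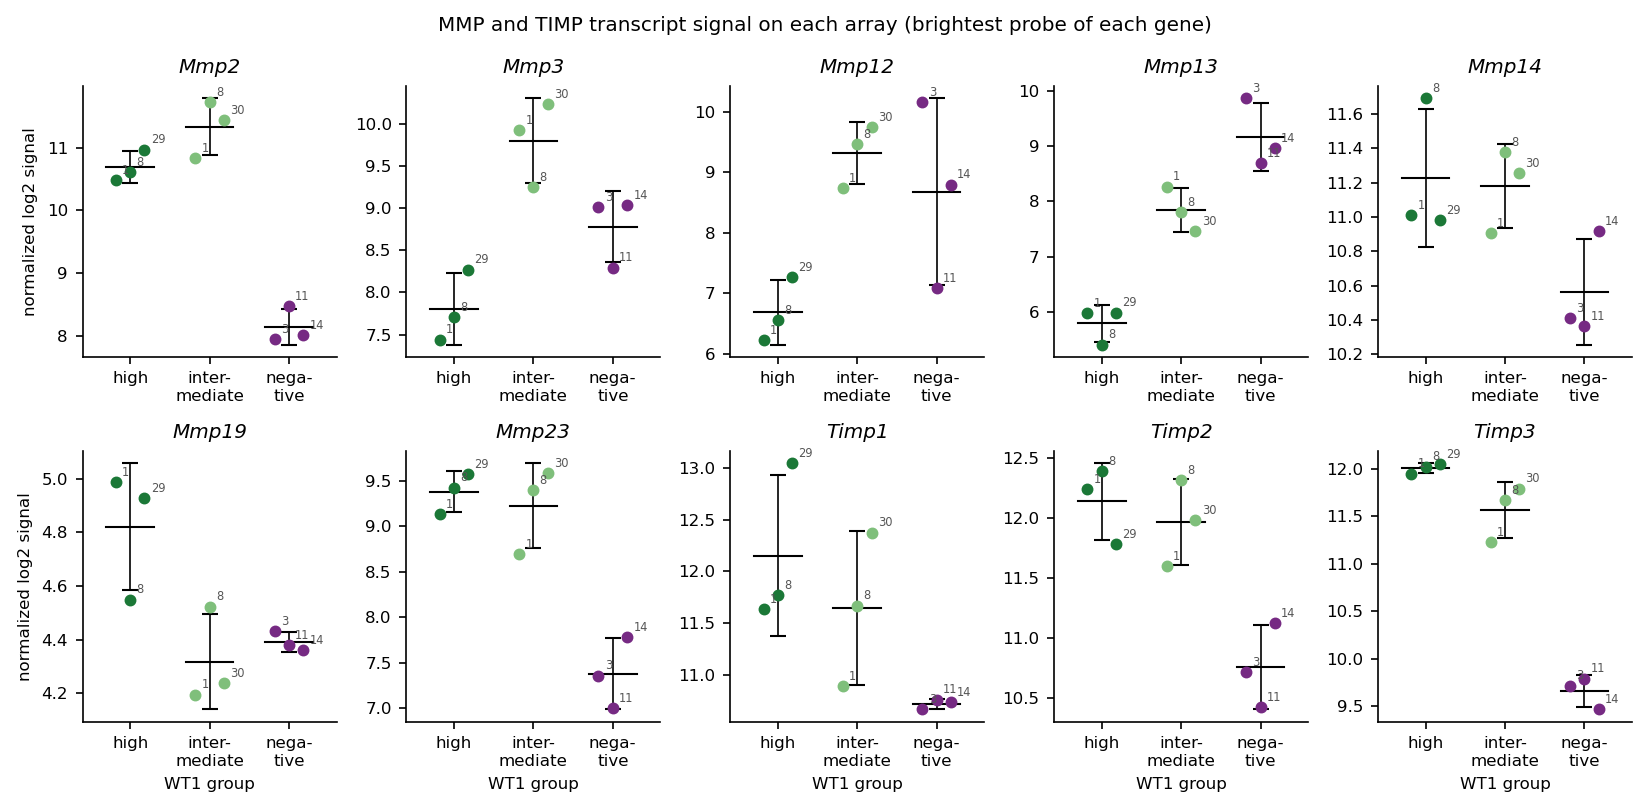
Normalized log2 signal (y axis, own scale in each panel and not from 0) of the brightest probe of each of the 10 genes on every array, by WT1 group (x axis); numbers are replicates, lines are group means and bars are SD over 3 arrays. Mmp3, Mmp12 and Mmp13 are lowest in WT1-high aHSCs, whereas Mmp2, Mmp23, Timp2 and Timp3 are lowest in WT1-negative aHSCs. For these last genes the in vivo means lie nearer to each other than to the WT1-negative mean, and the in vivo groups of Timp3 do not overlap.

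Timp3, the inhibitor that binds to matrix and also blocks ADAM proteases, was the inhibitor furthest above culture. Its brightest probe read 11.95, 12.03 and 12.05 in WT1-high, 11.23, 11.68 and 11.79 in WT1-intermediate and 9.72, 9.79 and 9.47 in WT1-negative aHSCs. The groups formed 3 steps without overlap. WT1-high aHSCs were higher than WT1-negative aHSCs by 2.35 ± 0.17 (SE), or 5.11-fold (adjusted p = 7.5e-07, limma, Benjamini-Hochberg). WT1-intermediate aHSCs were higher by 1.91 ± 0.17, or 3.75-fold (adjusted p = 4.4e-06).

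Between WT1-high and WT1-intermediate aHSCs this Timp3 probe differed by 0.44 with a 95% interval of 0.06 to 0.82 and was not called (adjusted p = 0.21, limma, Benjamini-Hochberg). The next brightest Timp3 probe read 7.71, 7.98 and 8.20 against 6.72, 6.98 and 7.49 in these groups. It was called higher in WT1-high aHSCs, by 0.90 ± 0.21 (SE, adjusted p = 0.038), a call lost in 10 of 21 alternatives (adjusted p between 0.058 and 0.14). These were leaving out WT1-high replicate 8 or 29, replicate 1 or 8 of WT1-intermediate, or any WT1-negative array, and applying no filter, fitting the compared groups alone or weighting arrays. The dimmest Timp3 probe lay between 4.52 and 5.37 on all arrays and was called in no comparison.

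Timp1, a marker of active fibrogenesis that is induced in aHSCs, varied more between in vivo arrays than between in vivo groups. It read 11.63, 11.77 and 13.05 in WT1-high and 10.89, 11.67 and 12.38 in WT1-intermediate aHSCs. In WT1-negative aHSCs it read 10.66, 10.76 and 10.73, an SD of 0.05 beside 0.78 and 0.74 in the in vivo groups. All in vivo arrays lay above all cultured ones, the highest being WT1-high replicate 29 and WT1-intermediate replicate 30.

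The Timp1 difference from WT1-negative aHSCs was 1.43 ± 0.39 for WT1-high (adjusted p = 0.0085) and 0.93 ± 0.39 for WT1-intermediate aHSCs, which was not called (adjusted p = 0.063, SE; limma, Benjamini-Hochberg). The latter passed in 6 of 19 alternatives, including the random replicate block (adjusted p = 0.032). Between the in vivo groups the difference was 0.51 with a 95% interval of -0.36 to 1.37, and by array number it was 0.74, 0.10 and 0.67. The second Timp1 probe shares 42 of its 50 bases with the first and gave 0.46, 1.40 and 0.94 in the same 3 comparisons, so it is no separate support.

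Timp2, which both inhibits Mmp2 and serves in its activation, read 12.24, 12.39 and 11.78 in WT1-high, 11.59, 12.31 and 11.98 in WT1-intermediate and 10.72, 10.42 and 11.12 in WT1-negative aHSCs. The in vivo groups overlapped and the cultured arrays lay below both. The difference from WT1-negative aHSCs was 1.38 ± 0.24 for WT1-high aHSCs and 1.21 ± 0.24 for WT1-intermediate aHSCs (SE; adjusted p = 0.00047 and 0.0013, limma, Benjamini-Hochberg). Between the in vivo groups it was 0.17 with a 95% interval of -0.35 to 0.70.

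The order of levels thus fell into a few patterns. For Mmp2, Mmp14, Mmp23, Timp1 and Timp2 the in vivo groups overlapped on the brightest probe and were not called apart, although Mmp2 was lower and Timp1 higher in WT1-high aHSCs within each of the 3 pairs. Mmp13 stepped from WT1-high up to WT1-negative aHSCs, and Timp3 stepped down in the same order, with its first step not called on the brightest probe. Mmp12 was lowest in WT1-high aHSCs, with no called difference between the other groups.

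The other MMP genes beside Mmp3, Mmp12 and Mmp13 on chromosome 9 were described as well. RefSeq (GRCm38.p6) orders a run of 10 MMP genes there, from Mmp13 through Mmp12, Mmp1b, Mmp3, Mmp1a, Mmp10, Mmp8, Mmp27 and Mmp20 to Mmp7, and 6 of them were tested. Mmp27 was detected on no in vivo array and passed the filter through the WT1-negative arrays alone, so it is left out of the next counts against that group. In WT1-high against WT1-negative aHSCs 5 of the other 5, which include Mmp3, Mmp12 and Mmp13, were called lower, with a median of -1.73. Among all tested probes, 33.1% were called lower in that comparison. In WT1-intermediate against WT1-negative aHSCs 3 were called lower and 1, Mmp3 by its brightest probe, higher. Of all tested probes, 33.6% were called lower and 24.4% higher there. Between the in vivo groups the 3 members were called lower, while Mmp1a, Mmp10 and Mmp27 differed by 0.16, 0.25 and 0.15 and were not called. In WT1-intermediate aHSCs, however, Mmp1a read 4.80, 5.09 and 4.87 and Mmp10 read 4.55, 4.56 and 5.25. The lowest detected signals on those arrays were 4.50, 4.55 and 4.62. A fall as large as that of the members could therefore not have been seen in Mmp1a, Mmp10 or Mmp27. Mmp27 was at least 3.67-fold lower in WT1-high and 3.64-fold lower in WT1-intermediate than in WT1-negative aHSCs.

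**Figure D5:**
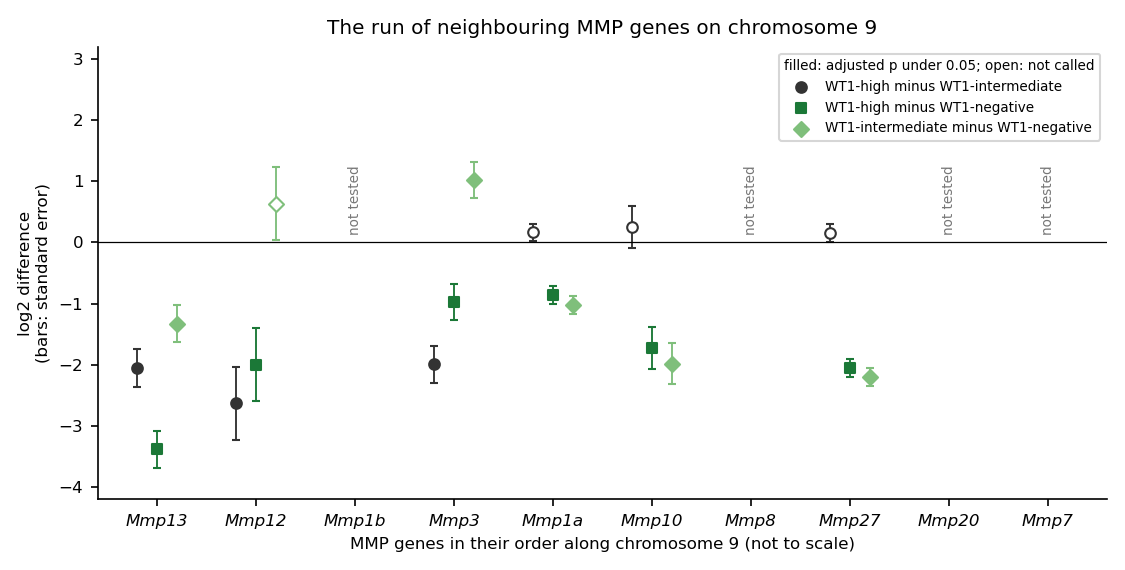
Log2 differences (y axis, bars are standard errors) of the MMP genes of the chromosome 9 run in gene order (x axis, not to scale, brightest tested probe) in the 3 comparisons of groups with 3 arrays each; filled symbols are calls at an adjusted p under 0.05, and 4 genes were not tested. The circles (WT1-high minus WT1-intermediate) are below 0 for Mmp13, Mmp12 and Mmp3 and close to 0 for Mmp1a, Mmp10 and Mmp27, the last of which was below detection in both in vivo groups and passed the filter through WT1-negative arrays alone. Mmp1a and Mmp10 lay near the lowest detected signal in WT1-intermediate aHSCs.

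Of 17 further MMP and TIMP genes, 9 were tested. None was called between WT1-high and WT1-intermediate aHSCs by limma (0 of 9, median -0.02), and 1 had an unadjusted p under 0.05. That gene was Mmp17, chosen after its values were seen, which differed by 0.60 ± 0.23 (SE). Mmp9, or gelatinase B, was lower than in WT1-negative aHSCs, with differences of -3.50 ± 0.35 for WT1-high and -3.08 ± 0.35 for WT1-intermediate (SE; adjusted p = 6.7e-06 and 2.2e-05, limma, Benjamini-Hochberg). Mmp10, or stromelysin 2, was lower as well, at -1.73 and -1.98. Gelatinases A and B thus stood on opposite sides of the cultured cells. Timp4 was detected on no array.

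Among 10 tested activators, inhibitors and partners of MMPs, none was called between WT1-high and WT1-intermediate aHSCs (median -0.22). Plau, the urokinase that activates plasminogen, differed by -1.56 with an adjusted p of 0.075. Against WT1-negative aHSCs it was lower, with differences of -2.87 for WT1-high and -1.31 for WT1-intermediate (adjusted p = 0.00016 and 0.021, limma, Benjamini-Hochberg). Lrp1, an endocytic receptor that clears MMPs and MMP-TIMP complexes, was higher by 2.04 and 2.53. Thbs2, a matricellular protein that clears Mmp2, was lower in WT1-high aHSCs (-1.78) and not called in WT1-intermediate aHSCs (-0.74). Cd63, a surface partner of Timp1, was lower in both, at -1.54 and -1.38.

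Of 12 tested ADAM and ADAMTS proteases, 2 were called lower in WT1-high than in WT1-intermediate aHSCs and none higher (median -0.17). Adamts4, an aggrecanase, read 6.18, 6.77 and 6.54 in WT1-high, 7.93, 8.57 and 8.43 in WT1-intermediate and 6.60, 5.93 and 6.25 in WT1-negative aHSCs. WT1-intermediate aHSCs stood above both other groups, and WT1-high aHSCs fell by 1.82 ± 0.23 against them (SE, adjusted p = 0.002, limma, Benjamini-Hochberg). Against WT1-negative aHSCs the WT1-intermediate group was higher by 2.05 (adjusted p = 2.3e-05). Adam8, a protease of myeloid cells, fell by 1.70 ± 0.27 (adjusted p = 0.0063) and stood at 4.68, 6.38 and 8.53 in WT1-high, WT1-intermediate and WT1-negative means. Adamts1 was higher than in WT1-negative aHSCs by 3.54 and 3.32 and Adamts9 by 2.91 and 2.07, in WT1-high and WT1-intermediate aHSCs.

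None of 6 matrix substrates was called between WT1-high and WT1-intermediate aHSCs (median 0.24). Against WT1-negative aHSCs, Eln, the elastin gene and substrate of Mmp12, was higher by 4.90 in WT1-high aHSCs and 4.56 in WT1-intermediate aHSCs. Col3a1 was higher by 4.55 and 4.36, and Col1a2 by 2.69 and 2.39 (adjusted p between 7.6e-08 and 8.2e-05, limma, Benjamini-Hochberg). Col1a1, chosen after its values were seen, was lower, at -1.40 and -1.26 (adjusted p = 0.0067 and 0.012). The brightest probes of the type I collagen chains thus differed in direction. Any other probes of these genes are not shown here.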

How the data were processed

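RNA of 9 samples was measured on Illumina MouseWG-6 bead arrays, 1 array per sample. The deposited tables hold the average bead signal intensity of each probe as the authors exported it from BeadStudio, neither background corrected nor normalized, and the deposited detection p-value, which places a probe among the negative controls of its array. The submitters' processing notes name limma. In vivo and in vitro arrays were exported in separate tables. One in vivo column is numbered 29 where the sample label reads 30, and a joined deposited table holds the same values under that sample. The number of arrays limits the precision. Where isolations were not separate, p-values measure only the spread between these samples.

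Background was fitted on 936 negative controls by normexp, with an offset of 16, and all 9 arrays were quantile normalized on the log2 scale (neqc, limma 3.58.1, R 4.3.3). A probe was kept where its detection p fell under 0.05 on 3 or more of the 9 arrays (20573 of 45281). A linear model with 3 groups was fitted to all arrays, and moderated two-sided tests were adjusted by Benjamini-Hochberg over all kept probes. Differences are on the log2 scale after background correction and offset, which understates changes of dim probes. A probe detected on no array of a group has a bound there, the lowest detected signal or its own if higher, and is given as at least N-fold. A gene was represented by its brightest probe, and no probe's level was set against another's. Steps were tested on simulated data.

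All member probes are described. Of the lists of other MMPs and TIMPs, their partners, ADAM proteases and matrix substrates, genes called between the in vivo groups and the 3 largest called differences from WT1-negative cells in each are named. Named cell type markers were chosen after their values were seen. The members, 13 lists and tests were chosen with earlier results of these data known. Of the list genes, 140 were matched by symbol, 3 by Entrez ID and 5 by neither. Replicate numbers were checked as pairs, since the study gives 3 animals for 6 in vivo arrays. Deviations from group means correlated at 0.35 for number 1, 0.34 for number 8 and 0.47 for 29 with 30, and between -0.39 and 0.03 otherwise. Alternatives covered normalization, background, filter, array weights, samples in the fit, replicate block and each array left out. Wt1 is not analysed here.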

Additional observations from a re-analysis of the deposited data

How the results depend on the processing

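Over 587 repeats of the 30 brightest-probe differences under other settings, 528 kept direction and side of the threshold, 44 lost a call, 7 gained one and 8 changed sign, none of the last in a called difference. Called member probes numbered 6 between the in vivo groups (4 to 6 elsewhere, 4 to 5 with 1 array left out), 16 for WT1-high against WT1-negative (13 to 16, 11 to 16 with 1 array left out) and 11 for WT1-intermediate against WT1-negative cells (8 under median scaling to 13, 9 to 13 with 1 array left out). The lowest of these, 11 in WT1-high against WT1-negative cells, came without WT1-negative replicate 3, and 4 in the in vivo comparison, 1.5 times fewer, came on leaving out WT1-high replicate 8 or 29, replicate 1 or 8 of WT1-intermediate, or replicate 14 of WT1-negative. Mmp14 between the in vivo groups changed sign under cyclic loess (-0.0036) and ranged from -0.18 to 0.17 with 1 array left out, Mmp23 from -0.11 to 0.33 and Timp2 from -0.012 to 0.35. Without WT1-intermediate replicate 1, Mmp14 was -0.09, Mmp23 -0.11 and Timp2 -0.012, and without WT1-high replicate 8 Mmp14 was -0.18. Mmp19 between WT1-intermediate and WT1-negative cells, at background in both, was 0.078 under cyclic loess and 0.39 under median scaling, and Mmp12 was -0.16 without WT1-negative replicate 11 (-0.16 to 1.38 with 1 array left out). Of the calls between the in vivo groups, Mmp12 was also lost with an offset of 50 (adjusted p = 0.083, limma), with no background correction (0.10), with no filter (0.18) and without WT1-negative replicate 14 (0.064), and the cause was not tested, while Mmp3 and Mmp13 were called in 21 of 21 alternatives. The median of all probes moved from -0.10 to 0.01 (WT1-high) and from -0.13 to -0.01 (WT1-intermediate, each against WT1-negative) under cyclic loess. With the replicate block, 6 member probes were called between the in vivo groups when it was random and 5 when it was fixed, Mmp12 being lost. A fixed block with 29 and 30 as a further pair, chosen after seeing the data, gave 6. Over all probes, calls in that comparison numbered 730, against 1752 with the random block, 1656 with the 3 fixed pairs, 339 with the compared groups alone and 335 with no filter. The fixed block could not be fitted for the comparisons with WT1-negative cells, which share no numbers, and a slide block was not run because the columns give no slide. Signal over background limits Mmp19, the dim probes of Mmp13 and Timp3 and, between the in vivo groups, Mmp1a, Mmp10 and Mmp27.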

Other observations

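Genes whose centred log2 profile over the 9 arrays lay closest to a member were ranked by the root mean square (RMS) difference of the profiles, as a description over 9 arrays that share the contrast of liver and culture. Each ranking used the brightest probe of the member. For Mmp3, with an RMS of 0.895 about its own mean, the closest were Tcf21, a transcription factor of mesenchymal cells (0.325), Srpx2 (0.342) and Ccbp2 (0.351). On that Mmp3 probe WT1-intermediate stood above WT1-negative aHSCs. The other Mmp3 probes had the reverse order and were not ranked. For Mmp12, with an RMS of 1.38 about its mean, they were Lpl, or lipoprotein lipase (0.698), Emr1, the F4/80 antigen of macrophages (0.731) and Svep1 (0.764), so no profile came as near as for the other 4 members ranked here (Mmp2, Mmp3, Mmp13 and Timp1). For Mmp13 (1.44 about its mean) they were Sdc3 (0.344), Fxyd5 (0.369) and 4732429D16Rik (0.376).

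For Mmp2 (1.41 about its mean) the closest were LOC636944 (0.236), LOC384413 (0.241) and Fxyd6 (0.251). For Timp1 (0.782 about its mean) they were Per2, a circadian clock gene (0.181), Adora1, an adenosine receptor (0.185), and Fkbp11 (0.228). WT1-high replicate 29 and WT1-intermediate replicate 30 had the highest Timp1 signals, 13.05 and 12.38. Timp1 differed by 0.67 for 29 minus 30, beside 0.74 for number 1 and 0.10 for number 8.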
